A study of Homo sapiens with 9 samples.

Results

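The transcripts of 10 subunits of the BAF family of chromatin remodelling complexes were followed in TCam-2, a cell line from a human seminoma that serves as a germ cell model. The members were chosen by gene symbol and comprise SMARCA2, SMARCA4, ARID1A, ARID1B, ARID2, PBRM1, SMARCB1, SMARCC1, SMARCC2 and SMARCD1. They are 10 of the 63856 genes counted, and a further row for SMARCB1 on an alternate scaffold held 0 counts in all samples. The 9 samples were untransfected wild type cells without modification (WT, n = 3), a negative control that received nonspecific gRNAs for the human genome (NC, n = 3), and cells in which ESX1 had been activated (ESX1, n = 3). ESX1 is an X-linked homeobox gene. It was activated with CRISPRa, in which specific gRNAs bring a catalytically dead Cas9 fused to the VPR activator to the promoter. In the study's methods the activated cells were given gRNA vectors that carry GFP together with the dCas9-VPR vector, while for NC only the gRNA vector is named. Both transfected groups went through antibiotic selection and induction with doxycycline, and in both only a part of the cells was GFP-positive. The study describes the 3 samples of each group as biological replicates.

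BAF complexes, the mammalian SWI/SNF remodellers, use the energy of ATP to slide or evict nucleosomes and so change how accessible DNA is. Each complex holds 1 of the 2 mutually exclusive ATPases, SMARCA2 (also called BRM) or SMARCA4 (BRG1). In canonical BAF and in PBAF, the core around the ATPase includes SMARCB1, SMARCC1, SMARCC2 and a SMARCD subunit, and the type of complex is set by other subunits. ARID1A or ARID1B marks canonical BAF, and ARID2 with PBRM1 marks PBAF.

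Total counts per sample lay between 5212804 and 10644408, with the activated sample 3 the shallowest. The targeted gene followed the labels: ESX1 was at 2.89 to 4.08 CPM (counts scaled to the library size) in the 6 control samples and at 57.0, 55.7 and 31.4 CPM in the activated samples. All 9 markers of seminoma and germ cell identity exceeded 1 CPM in every sample, and the Leydig cell markers HSD3B2 and INSL3 were at 0. By the same measure, 2 of 3 embryonal carcinoma, 2 of 4 fibroblast, 1 of 4 Sertoli and 1 of 4 Leydig markers exceeded 1 CPM in every sample. The summed level of the 9 seminoma markers differed between the groups, from 3794.6 to 4659.1 CPM in WT, 2864.9 to 3073.1 CPM in NC and 1608.2 to 1952.2 CPM in the activated cells. The summed levels of 4 fibroblast markers ranged from 108.1 to 336.7 CPM over the samples and those of 4 Sertoli markers from 9.62 to 23.6 CPM. The corresponding ranges were 54.9 to 84.5 CPM for 3 embryonal carcinoma markers and 1.17 to 4.46 CPM for 4 Leydig markers. The part of these differences in the results that follow was not tested. In bulk RNA, fewer cells that express a gene and less RNA of it per cell cannot be told apart.

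The ATPase genes lie on different chromosomes. SMARCA2 (ENSG00000080503.22) spans chromosome 9 (GRCh38, plus strand) between 1980290 and 2193624, and SMARCA4 (ENSG00000127616.17) spans chromosome 19 (plus strand) between 10961001 and 11065395. The windows from 250 bases before to 50 after a RefSeq transcription start (GRCh38.p14) are shown for both, because these genes perform the same role in the complex and differed widely in level. For SMARCA2 the window is at chr9:2015097-2015396, the 1 of 4 RefSeq windows nearest to the gene start in the count annotation, from which its transcription start lies 35057 bases away. For SMARCA4 it is at chr19:10960780-10961079. Capitals mark GC boxes (GGGCGG) and the AP-1 site (TGACTCA), searched on both strands.
SMARCA2: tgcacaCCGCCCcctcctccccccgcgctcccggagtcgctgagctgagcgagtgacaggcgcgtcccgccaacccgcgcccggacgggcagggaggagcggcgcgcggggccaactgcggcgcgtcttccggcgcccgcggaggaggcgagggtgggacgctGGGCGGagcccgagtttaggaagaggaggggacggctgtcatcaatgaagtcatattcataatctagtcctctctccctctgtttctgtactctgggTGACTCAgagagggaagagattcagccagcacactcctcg
SMARCA4: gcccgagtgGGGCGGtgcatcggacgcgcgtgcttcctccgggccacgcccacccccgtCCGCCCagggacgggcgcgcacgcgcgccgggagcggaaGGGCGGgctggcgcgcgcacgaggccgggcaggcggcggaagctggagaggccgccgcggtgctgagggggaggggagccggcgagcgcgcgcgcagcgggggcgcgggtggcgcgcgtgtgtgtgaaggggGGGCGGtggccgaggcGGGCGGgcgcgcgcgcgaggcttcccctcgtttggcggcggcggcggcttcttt
The SMARCA2 window held 30 CpG dinucleotides, 2 GC boxes and 1 AP-1 site, and the SMARCA4 window held 55 CpG and 5 GC boxes. Over all 35116 RefSeq windows of this length the median was 14 CpG, 44.95% held a GC box and 4.95% held an AP-1 site. A RefSeq window was matched for 7 of the 10 members, all but ARID2, SMARCC1 and SMARCC2, and all 7 held a GC box. An AP-1 site was in 2 of the 7, those of SMARCA2 and SMARCB1. The homeodomain core TAATTA was in 0 of the 7 windows and in 4.84% of all windows. These are matches of letters, and binding was not measured.

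SMARCA2 was the lowest of the 10 subunits in every group. As CPM per kilobase of annotated exon, which allows genes to be compared, its level was 1.04 ± 0.23 (SD, n = 3) in WT, 0.512 ± 0.048 in NC and 1.17 ± 0.282 in the activated cells. The levels of the other subunits in WT ran from 3.08 ± 0.216 for ARID1B to 26.5 ± 1.13 for SMARCC1. Above ARID1B came SMARCC2 at 5.83, ARID1A at 10.4, ARID2 at 12.7, PBRM1 at 16.4, SMARCD1 at 20.2, SMARCB1 at 21.3 and SMARCA4 at 23.7 CPM per kilobase. In WT the neighbours among the top 4 of this order overlapped in their samples, while each neighbouring pair below them did not. In NC and in the activated cells the lowest 3 places were again SMARCC2, ARID1B and SMARCA2, in that order and without overlap. The kilobases include every annotated exon, 18595 bases for SMARCA2 and 44058 for ARID1B, so a gene with long rarely used exons appears low on this scale.

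The ATPase transcripts were unequal. SMARCA2 made up 3.73%, 4.28% and 4.51% of the summed per-length level of both ATPases in the WT samples. In NC it made up 1.68%, 2.4% and 1.92%, and in the activated cells 4.36%, 4.63% and 5.88%. All NC samples lay below all other samples, while 1 activated sample lay within the range of WT.

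Among the 10 subunits, SMARCA2 had the largest fold changes in both comparisons with NC, and the NC samples were the ones that stood apart. Its raw counts were 137, 134 and 225 in WT, 90, 98 and 86 in NC, and 216, 164 and 146 in the activated cells. After scaling for library size these counts correspond to 15.0, 19.5 and 23.5 CPM in WT, 9.33, 10.5 and 8.75 CPM in NC, and 21.9, 16.5 and 27.0 CPM in the activated cells. NC lay below every other sample, and WT and the activated cells overlapped. Counting error alone was 10.8% at the lowest of these counts and 6.67% at the highest, and the spread between replicates was 22.1% of the mean in WT, 9.37% in NC and 24.0% in the activated cells.

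**Figure D1:**
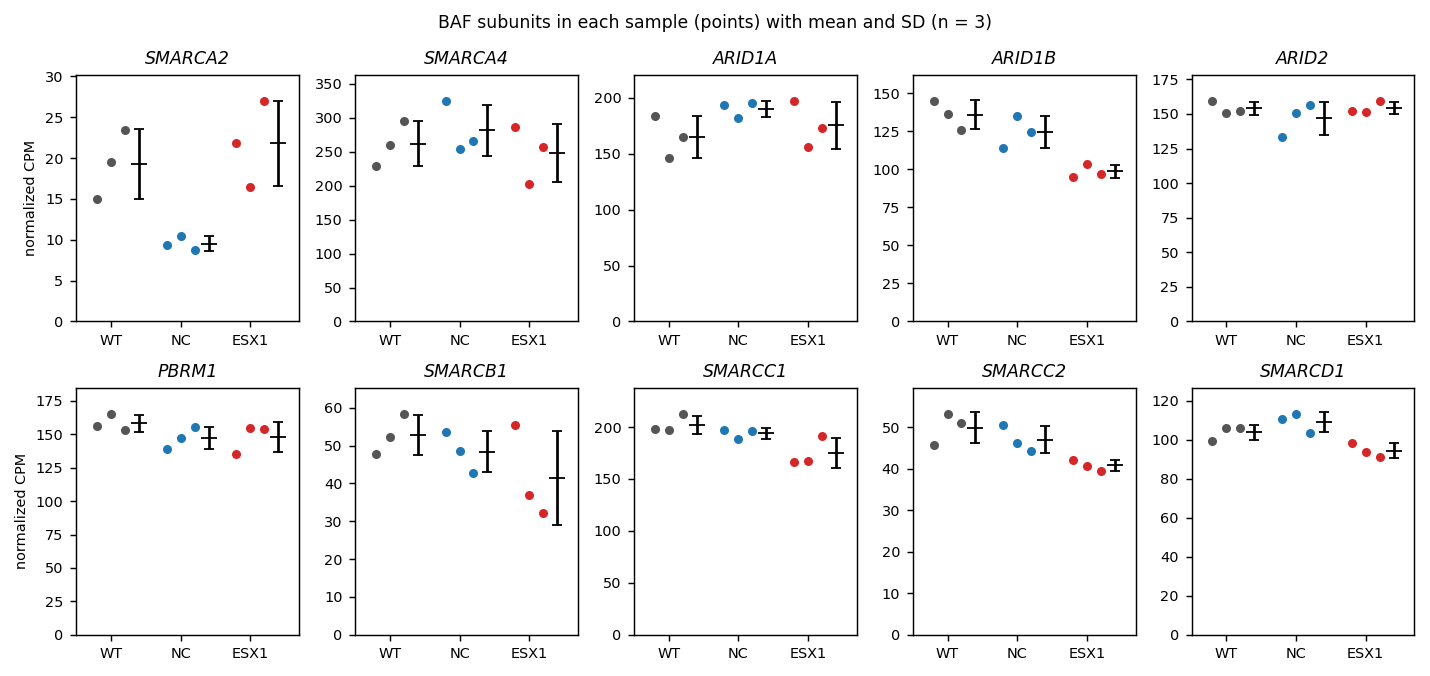
Level of each of the 10 BAF subunits in every sample, in normalised CPM (linear axis from 0, each panel with its own scale), for WT (grey), NC (blue) and the activated cells (red), with the mean and SD of each group (n = 3) in black. SMARCA2 was at 8.75 to 10.5 CPM in NC and at 15.0 to 27.0 CPM in all other samples, and ARID1B was lower in the activated cells than in any control sample.

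Compared with NC, SMARCA2 rose in the activated cells by 1.18 on the log2 scale (SE 0.215, 95% interval 0.73 to 1.63), with an adjusted p of 0.00354 in edgeR's quasi-likelihood test over 18452 genes. Compared with WT, it fell in NC (log2 fold change -1.02, SE 0.215, 95% interval -1.47 to -0.57, adjusted p = 0.00361 in edgeR). Between the activated cells and WT the log2 fold change was 0.16 (SE 0.207, 95% interval -0.28 to 0.60, adjusted p = 0.606 in edgeR), an interval that runs from a modest decrease to an increase of less than 2-fold. The 3 comparisons share samples: the low NC level enters the first with one sign and the second with the other. The study picked SMARCA2 from these same samples as a gene raised at least 2-fold against both controls, so its call against NC is not independent evidence. Here SMARCA2 did not pass against WT, and its interval there stayed below a 2-fold increase. Over all alternatives its adjusted p ranged from 2.83e-06 to 0.0284 against NC, from 5.28e-05 to 0.0268 for NC against WT, and from 0.255 to 0.999 for the activated cells against WT.

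The share of counts on mitochondrial genes was also lowest in NC, at 14.45% to 15.25%, against 17.02% to 18.33% in WT and 19.2% to 19.87% in the activated cells. With mitochondrial genes left out of the library sizes, the log2 fold change of SMARCA2 against NC was 1.18, and SMARCA2 fell in NC against WT as before (adjusted p = 0.00398 in edgeR). RP11-264I13.2, a gene on the other strand that was too low to be tested, covers 2.26% of the SMARCA2 exon bases. On the log2 scale deposited by the authors, SMARCA2 averaged 7.68 in WT, 6.89 in NC and 7.83 in the activated cells (SD 0.27, 0.10 and 0.29, n = 3). The difference between the activated cells and NC was 0.94 on that scale, where genes without counts sit at a floor of 4.18 and differences of low genes are drawn in.

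Of the 10 subunits, 1 rose and 0 fell in the activated cells against NC, while 1.88% of all tested genes rose and 2.37% fell. Against WT, 0 rose and 1, ARID1B, fell in the activated cells, with 12.9% of all tested genes higher and 15.8% lower. In NC against WT, 0 rose and 1, SMARCA2, fell, with 6.82% higher and 10.3% lower. The median log2 fold change of the 10 was -0.16, -0.12 and -0.08 in these comparisons, beside 0.00, 0.01 and 0.01 over all tested genes. At an unadjusted p below 0.05 the members numbered 2, 2 and 1, beside 16.0%, 39.7% and 31.1% of all tested genes, and DESeq2 called the same number of members as edgeR in each comparison at an adjusted p below 0.05. Asked for any difference among the 3 groups, 2 of the 10 passed, SMARCA2 (adjusted p = 0.0012 in edgeR) and ARID1B (adjusted p = 0.0123 in edgeR), beside 26.4% of all tested genes. With a 2-fold change required as well, SMARCA2 was the 1 member called against NC (1.78% of all tested genes) and the 1 called in NC against WT (5.27%), and 0 were called in the activated cells against WT (11.5%). The 2-fold call in NC against WT was lost with upper-quartile factors, with at least 10 counts in every sample, with the replicate block, with only the 6 samples compared and with limma, and also without WT sample 3 or NC sample 3. The 2-fold call against NC was lost with limma.

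**Figure D2:**
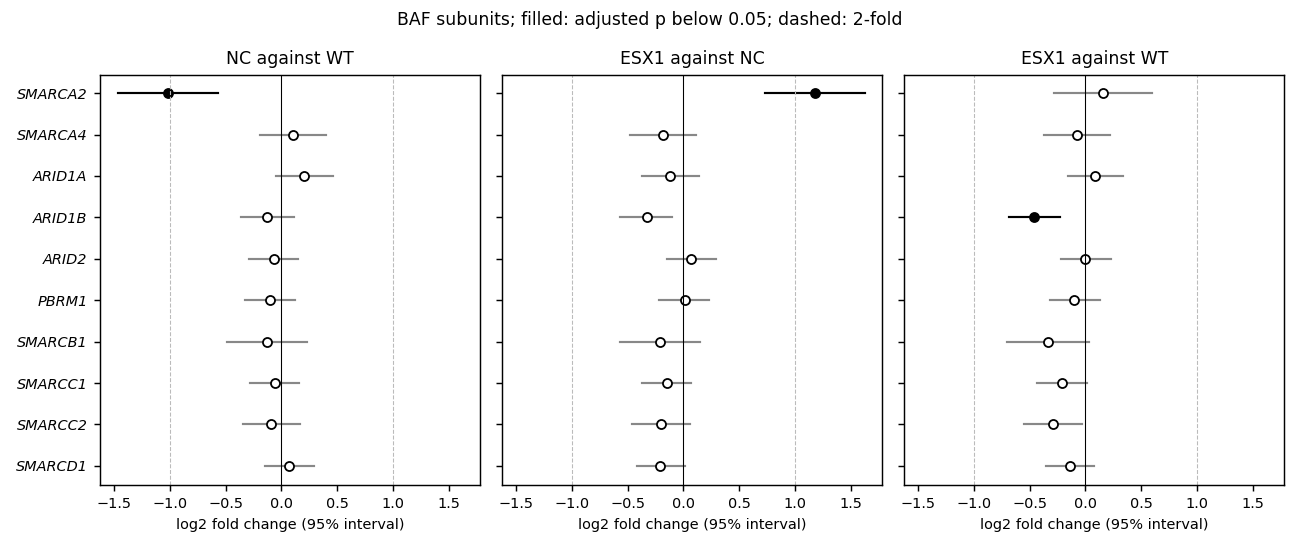
Log2 fold change of the 10 BAF subunits with its 95% interval in the 3 comparisons (n = 3 samples a group, edgeR), with filled points for an adjusted p below 0.05 and dashed lines at a 2-fold change. SMARCA2 lies at -1.02 for NC against WT, 1.18 for the activated cells against NC and 0.16 for the activated cells against WT, and the other 9 subunits lie between -0.46 and 0.20 throughout.

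SMARCA4, the other ATPase, did not follow SMARCA2. It was at 229.6, 259.9 and 295.9 CPM in WT, 324.9, 253.8 and 266.0 CPM in NC, and 286.2, 202.2 and 256.9 CPM in the activated cells. The 3 groups overlapped. Its log2 fold change was -0.18 (SE 0.140, 95% interval -0.48 to 0.11) against NC and -0.08 (SE 0.140, -0.37 to 0.22) against WT in the activated cells, and 0.10 (SE 0.140, -0.19 to 0.40) for NC against WT, and the adjusted p from edgeR was 0.593, 0.728 and 0.653.

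Taking SMARCA4 as the reference within each sample removes any scaling of whole libraries. The difference of log2 CPM, SMARCA2 minus SMARCA4, was -3.92, -3.72 and -3.64 in WT, -5.09, -4.57 and -4.89 in NC, and -3.69, -3.60 and -3.24 in the activated cells. It differed over the 3 groups (exact permutation test over 280 divisions, p = 0.00714, 0.0107 when adjusted over the 2 references used for SMARCA2, smallest possible p 0.00357). The planned reference was the mean of the other 9 subunits, and SMARCA4 was added to it. For the planned reference, the exact permutation test over 280 divisions gave p = 0.0107 for the 3 groups (0.0107 when adjusted). The study picked SMARCA2 from these same samples, so neither p is independent evidence. With SMARCA4 as the reference, the group means differed by 1.34 between the activated cells and NC (exact p = 0.1). They differed by -1.09 between NC and WT (exact p = 0.1) and by 0.25 between the activated cells and WT (exact p = 0.2). With 3 samples against 3, an exact two-sided p cannot fall below 0.1. Against the mean of the other 9 subunits in place of SMARCA4, SMARCA2 stood at -3.02, -2.66 and -2.44 in WT, -3.72, -3.53 and -3.77 in NC, and -2.41, -2.68 and -2.02 in the activated cells on the log2 scale. NC was again below all other samples, and the other groups overlapped.

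**Figure D3:**
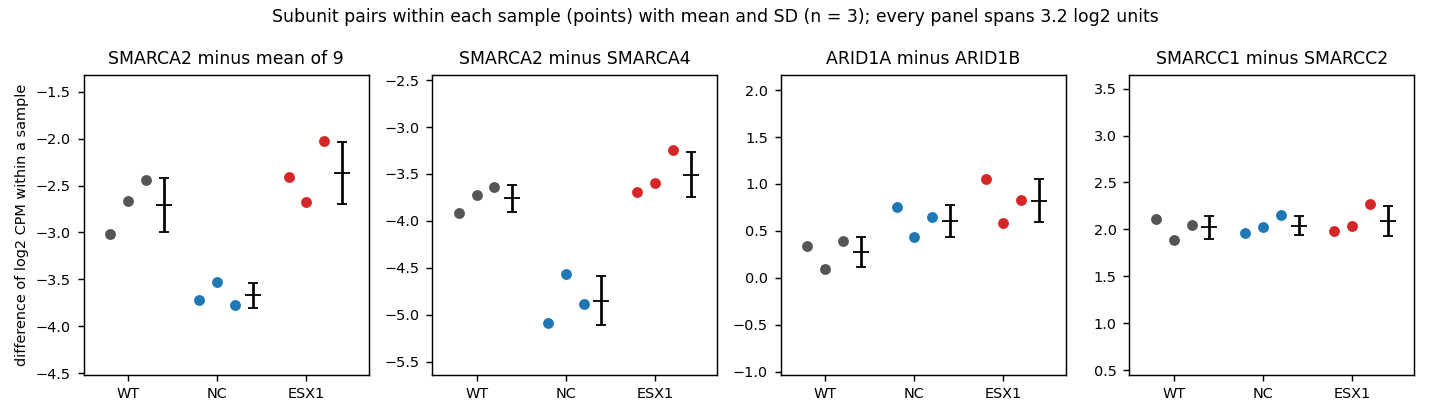
Differences of log2 CPM between subunits of the same sample for WT (grey), NC (blue) and the activated cells (red), with mean and SD (n = 3) in black and the same span of log2 units in every panel. SMARCA2 minus SMARCA4 averaged -3.76 in WT, -4.85 in NC and -3.51 in the activated cells, while SMARCC1 minus SMARCC2 averaged 2.02, 2.04 and 2.09.

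ARID1B and ARID1A are DNA-binding subunits that replace each other in canonical BAF. ARID1B (ENSG00000049618.22, chromosome 6, plus strand, 156777374 to 157210779) was at 145.0, 136.7 and 126.0 CPM in WT, 114.3, 134.8 and 124.5 CPM in NC, and 95.2, 103.8 and 97.2 CPM in the activated cells. Every activated sample was below every control sample, and WT and NC overlapped. ARID1B fell by 0.46 on the log2 scale in the activated cells against WT (SE 0.111, 95% interval -0.69 to -0.23, adjusted p = 0.0047 in edgeR), and its adjusted p under the alternatives ranged from 0.00175 to 0.0242. Against NC its log2 fold change was -0.33 (SE 0.110, 95% interval -0.57 to -0.10, unadjusted p = 0.00747, adjusted p = 0.108 in edgeR), and for NC against WT it was -0.13 (adjusted p = 0.466 in edgeR).

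ARID1A was at 183.8, 145.9 and 165.1 CPM in WT, 193.4, 181.9 and 195.1 CPM in NC, and 197.2, 155.6 and 173.3 CPM in the activated cells. The groups overlapped, and its log2 fold changes of -0.12 against NC and 0.09 against WT in the activated cells, and of 0.20 for NC against WT, did not pass (adjusted p = 0.711, 0.625 and 0.258 in edgeR). Within the samples, the log2 CPM of ARID1A exceeded that of ARID1B by 0.34, 0.09 and 0.39 in WT. The excess was 0.76, 0.43 and 0.65 in NC, and 1.05, 0.58 and 0.83 in the activated cells. All NC and activated samples lay above WT in this difference. It is not corrected for gene length and serves to compare groups. Per kilobase, the WT means were 10.4 for ARID1A and 3.08 for ARID1B. This pair, and the pair of SMARCC genes, were compared after the levels had been seen and carry no test.

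Of the PBAF subunits, ARID2 and PBRM1 were among the 10 members, and neither passed the test in any comparison. ARID2, which binds DNA through its ARID domain, lay between 150.4 and 159.2 CPM in WT, 133.5 and 156.4 CPM in NC, and 151.6 and 159.4 CPM in the activated cells. PBRM1, whose bromodomains read acetylated histones, lay between 153.2 and 165.0 CPM in WT, 139.1 and 155.6 CPM in NC, and 135.1 and 155.0 CPM in the activated cells. Their groups overlapped in all 3 comparisons. The log2 fold changes of ARID2 were 0.07 against NC and 0.00 against WT in the activated cells and -0.07 for NC against WT, and those of PBRM1 were 0.01, -0.10 and -0.10. Their 95% intervals all lay between -0.33 and 0.29, so a 2-fold change of either gene was outside the intervals.

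Of the 4 core subunits among the 10 members, SMARCB1, SMARCC1, SMARCC2 and SMARCD1, 0 passed the test at an adjusted p below 0.05. Of all tested genes, 1.88% rose and 2.37% fell in the activated cells against NC. The shares were 12.9% and 15.8% in the activated cells against WT, and 6.82% and 10.3% in NC against WT. SMARCB1, which helps anchor the complex to the nucleosome, was at 47.8, 52.3 and 58.3 CPM in WT, 53.7, 48.7 and 42.8 CPM in NC, and 55.6, 36.9 and 32.1 CPM in the activated cells. The first activated sample was within the range of WT and the other 2 were below all control samples. Its log2 fold change against WT was -0.34 (SE 0.173, 95% interval -0.70 to 0.03, adjusted p = 0.158 in edgeR), and without activated sample 1 it was -0.61 (adjusted p = 0.00743 in edgeR), which would bring the members called in that comparison from 1 to 2. With 174 counts, the lowest SMARCB1 value was that of the shallowest library.

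The scaffold subunits SMARCC1 and SMARCC2, which pair with each other in the core, differed from each other by similar amounts in all groups. SMARCC1 lay between 196.8 and 212.3 CPM in WT, 188.2 and 196.8 CPM in NC, and 166.2 and 191.6 CPM in the activated cells. SMARCC2 lay between 45.6 and 53.1 CPM in WT, 44.2 and 50.6 CPM in NC, and 39.5 and 42.1 CPM in the activated cells. In the activated cells both were below all WT samples, with log2 fold changes of -0.21 (95% interval -0.43 to 0.01, adjusted p = 0.149 in edgeR) for SMARCC1 and -0.29 (-0.55 to -0.03, adjusted p = 0.0889 in edgeR) for SMARCC2. Without correction for gene length, the log2 CPM of SMARCC1 exceeded that of SMARCC2 by 1.89 to 2.11 in WT. The excess was 1.96 to 2.15 in NC and 1.98 to 2.27 in the activated cells. SMARCC2 shares 6.01% of its exon bases with MYL6 on the other strand, and the counting used no strand, so reads of that stretch cannot be told apart.

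SMARCD1, a subunit that links the complex to transcription factors, lay between 99.2 and 105.9 CPM in WT, 103.2 and 113.0 CPM in NC, and 90.9 and 98.4 CPM in the activated cells. All activated samples were below all control samples, by -0.14 against WT (adjusted p = 0.354 in edgeR) and -0.21 against NC (adjusted p = 0.345 in edgeR) on the log2 scale. In all, 4 of the 10 subunits did not overlap between the activated cells and WT, beside 40.3% of all tested genes. The count was also 4 of 10 between the activated cells and NC, beside 22.6%, and 1 of 10 between NC and WT, beside 37.6%.

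The 95% intervals of the 9 subunits other than SMARCA2 stayed within a 2-fold change. They reached from -0.57 to 0.29 against NC and from -0.70 to 0.34 against WT in the activated cells, and from -0.49 to 0.46 for NC against WT. Over the 9 samples the correlation (Pearson's r) of their log2 CPM with that of SMARCA2 ran from -0.59 for SMARCD1 to 0.44 for ARID2, as a description of samples that share groups. The 5 tested genes with the highest r to SMARCA2 were C1orf43 (0.956), RPL7L1 (0.952), KIAA1147 (0.947), LTA4H (0.946) and TRMT5 (0.941). Chosen for this likeness, they had log2 fold changes of 0.20 to 0.43 in the activated cells against NC. There 0 of the 5 passed the test, beside 1.88% higher and 2.37% lower among all tested genes. In NC against WT, KIAA1147 (-0.47, adjusted p = 0.03 in edgeR) and LTA4H (-0.39, adjusted p = 0.0332 in edgeR) fell and the other 3 did not pass. Of all tested genes 10.3% were lower there, and the choice by likeness to SMARCA2 favours a low level in NC.

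Of 21 further genes that encode BAF subunits, 20 were tested, and ACTL6B, a neuronal actin-like subunit, was not, with 1 count in all. In the activated cells against WT, 0 of the 20 rose and 4 fell, BCL11B, SMARCD2, SS18 and BRD7, beside 12.9% higher and 15.8% lower among all tested genes. Against NC, 0 rose and 1 fell, BCL11B, beside 1.88% and 2.37%. In NC against WT, 0 rose and 2 fell, SMARCD2 and ACTL6A, beside 6.82% and 10.3%. The median log2 fold change of the 20 was -0.06, -0.13 and -0.08. Without activated sample 2, 7 passed in the activated cells against WT. The count for NC against WT was 4 without WT sample 1 and 1 without WT sample 3 or any 1 of the NC samples.

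BCL11B, a zinc finger protein known from T cells and neurons, was the further subunit with the largest fold changes past the test in both comparisons of the activated cells. It was at 131.6, 144.3 and 132.1 CPM in WT, 98.1, 116.0 and 108.6 CPM in NC, and 57.6, 56.3 and 43.8 CPM in the activated cells. The 3 groups did not overlap. Its level in the activated cells fell by 1.36 against WT (SE 0.124, adjusted p = 6.13e-07 in edgeR) and fell by 1.03 against NC (SE 0.124, adjusted p = 9.4e-05 in edgeR), both on the log2 scale. For NC against WT its log2 fold change was -0.34 (adjusted p = 0.062 in edgeR).

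SMARCD2, an alternative to SMARCD1 in the core, was at 194.1, 239.8 and 279.5 CPM in WT, 144.6, 141.4 and 150.1 CPM in NC, and 140.4, 126.2 and 108.2 CPM in the activated cells. Both transfected groups were below WT. It fell by 0.93 in the activated cells against WT (SE 0.135, adjusted p = 7.49e-05 in edgeR) and fell by 0.71 in NC against WT (SE 0.134, adjusted p = 0.00167 in edgeR) on the log2 scale. Between the activated cells and NC its log2 fold change was -0.22 (adjusted p = 0.474 in edgeR).

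SS18, a subunit known as the fusion partner in synovial sarcoma, fell by 0.59 on the log2 scale in the activated cells against WT (SE 0.132, adjusted p = 0.00302 in edgeR). BRD7, a bromodomain subunit of PBAF, fell by 0.40 in the same comparison (SE 0.120, adjusted p = 0.0185 in edgeR). ACTL6A, an actin-like subunit of proliferating cells, fell by 0.56 in NC against WT (SE 0.157, adjusted p = 0.0195 in edgeR), and its log2 fold change in the activated cells against WT was -0.38 (adjusted p = 0.082 in edgeR). SS18, BRD7 and ACTL6A had log2 fold changes of -0.25, -0.20 and 0.19 in the activated cells against NC, and none of them passed.

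**Figure D4:**
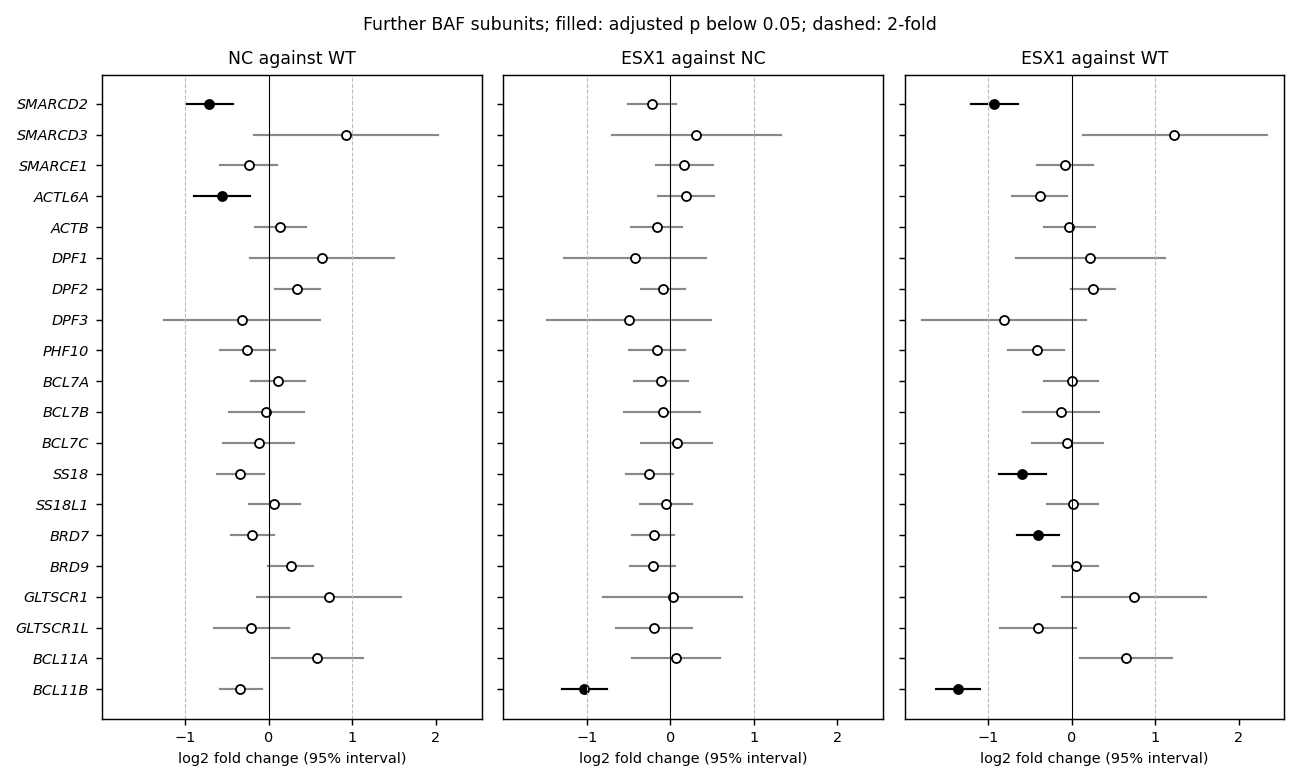
Log2 fold change of the 20 tested further BAF subunits with its 95% interval in the 3 comparisons (n = 3 samples a group, edgeR), with filled points for an adjusted p below 0.05 and dashed lines at a 2-fold change. BCL11B is at -1.36 against WT and -1.03 against NC, and SMARCD2 is at -0.93 in the activated cells and -0.71 in NC against WT.

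Among other remodellers and chromatin complexes, 0 genes rose in the activated cells against NC in any list. Of all tested genes, 1.88% rose and 2.37% fell in that comparison. Of 9 tested genes of the ISWI remodellers 0 fell, of 20 of the CHD and NuRD complexes 1 fell, of 15 of INO80 and SRCAP 0 fell, and of 8 of the Polycomb complex PRC2 0 fell. At an unadjusted p below 0.05 these lists held 2, 4, 3 and 2 genes, beside the 16.0% given above for all tested genes. In the activated cells against WT, 3 ISWI genes rose and 0 fell, 2 CHD and NuRD genes rose and 6 fell, 0 INO80 and SRCAP genes rose and 3 fell, and 0 PRC2 genes rose and 1 fell, beside 12.9% higher and 15.8% lower among all tested genes. In NC against WT the counts were 4 rose and 0 fell, 1 rose and 3 fell, 2 rose and 2 fell, and 0 rose and 0 fell, beside 6.82% and 10.3%.

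Around SMARCA2, 7 of the 22 genes listed within 1 Mb were tested. Of these 7, 2 rose in the activated cells against NC and 4 against WT, where 1.88% and 12.9% of all tested genes were higher. VLDLR, a lipoprotein receptor gene 428210 bases downstream of SMARCA2, had counts of 129, 31 and 56 in WT, 135, 145 and 153 in NC, and 381, 331 and 180 in the activated cells. It rose by 1.22 on the log2 scale against NC (SE 0.265, adjusted p = 0.0117 in edgeR), by 2.08 against WT (SE 0.280, adjusted p = 3.45e-05 in edgeR), and by 0.86 in NC against WT (SE 0.284, adjusted p = 0.0457 in edgeR). DMRT3, a transcription factor gene 988559 bases upstream that the study also picked from these samples, rose by 2.13 against NC (SE 0.360, adjusted p = 0.002 in edgeR) and by 1.55 against WT (SE 0.348, adjusted p = 0.00287 in edgeR).

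The others were DMRT2, VLDLR-AS1, LINC01230, KCNV2 and PUM3. DMRT2 and VLDLR-AS1 rose against WT, by 1.43 (adjusted p = 0.0446 in edgeR) and 1.85 (adjusted p = 0.00247 in edgeR) on the log2 scale. Their log2 fold changes against NC were 0.74 and 0.78 (adjusted p = 0.495 and 0.307 in edgeR). Few reads lay on either gene. DMRT2 had counts of 12, 7 and 6 in WT, 14, 9 and 23 in NC, and 22, 18 and 23 in the activated cells. VLDLR-AS1 had 9, 8 and 9 in WT, 22, 27 and 13 in NC, and 38, 36 and 20 in the activated cells. VLDLR-AS1 lies on the strand opposite to VLDLR and overlaps it, so its reads cannot be told apart from those of VLDLR where exons are shared. LINC01230, KCNV2 and PUM3 passed in 0 of the 3 comparisons. Of the 7 neighbours, 0 fell in NC against WT, where SMARCA2 fell and 10.3% of all tested genes were lower. DMRT3 had a log2 fold change of -0.58 there (adjusted p = 0.326 in edgeR).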

How the data were processed

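Total RNA of 9 TCam-2 samples was sequenced in pairs after depletion of ribosomal RNA with a stranded kit. Alignment by the authors was to GRCh38 (HISAT2 2.0.5), and featureCounts gave the pairs on each gene's exons with no strand option set, separately for each replicate. The header of the count table names version 1.5.2 and GENCODE 26, the submitters' processing notes list version 1.6.5, and the paper's methods name another GENCODE release. These counts were deposited unnormalized. The authors also deposited log2 values normalized with DESeq2, whose transformation is not given in the sources used here. Within each sample, every count corresponded to 1 log2 value (0 rows broke this). Gene lengths are the deposited exon lengths in bases.

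Genes were kept by edgeR's filterByExpr with the 3 groups (18452 of 63856), and all 10 members passed. With TMM factors, 1 quasi-likelihood model of the 9 samples with 3 group means (glmQLFit, glmQLFTest, edgeR 4.0.16, R 4.3.3) gave each comparison of groups, and Benjamini-Hochberg adjustment covered every gene tested. "Rose" and "fell" mean an adjusted p below 0.05. CPM are TMM-scaled, and log2 CPM used a prior count of 2. The common dispersion was 0.0277. On simulated counts for the activated cells against NC (18452 genes, 200 changed), 82.4% of the 2-fold and 100% of the 4-fold changes were recovered, with 10 false calls. In this simulation no gene with low counts was changed, and all genes had the common dispersion. Recovery for genes with low counts was therefore not measured. Single values per sample were compared with exact permutation tests over samples. Intervals are 95% intervals of the fit, and counting error covers sampling of reads only.

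Alternatives were RLE and upper-quartile factors, other filters, library sizes without mitochondrial genes, a replicate block, only the 6 samples compared, DESeq2 1.42.0, limma 3.58.1 on the authors' log2 values, and leaving out each sample. Same-numbered samples of 2 groups deviated from their group means with correlations of -0.03 to 0.193, so the numbers of the titles were not taken to pair samples. Named were all members, ESX1, the further subunits past the threshold, the tested genes within 1 Mb of SMARCA2, and the 5 genes most correlated with it. BCL11B, SMARCD2 and VLDLR are given more values than the others of their lists, a choice made after the values were seen. Members and lists were chosen with earlier results of these data known. Of the gene identifiers, 55780 were in the reference name table, 35481 of them under the same symbol, including all 10 members. The labels name no batch. The reference genome given is GRCh37 and was not used for coordinates.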

Additional observations from a re-analysis of the deposited data

How the results depend on the processing

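SMARCA2 kept its direction and its side of the threshold against NC and for NC against WT in all 18 alternatives, with log2 fold changes of 0.94 to 1.35 and of -1.18 to -0.78. In the activated cells against WT it passed in none of them and ranged from -0.00061 to 0.33 when single samples were left out, the lowest value being that without WT sample 1. ARID1B passed against WT in all 18. The 2-fold rule was the fragile one: for NC against WT the count of members past it was 0 in place of 1 with upper-quartile factors, with at least 10 counts in every sample, with the replicate block, with only the 6 samples compared and with limma, and 0 to 1 when single samples were left out (0 without WT sample 3 or NC sample 3). Against NC it was 0 with limma. Members past the adjusted p alone numbered 1 to 2 in the activated cells against WT when single samples were left out. Further subunits numbered 3 to 7 there, and 1 to 4 for NC against WT, where the replicate block gave 5 and the fit of only the 6 samples gave 4. At an adjusted p below 0.05 alone, the replicate block changed the call of none of the 10 members in any comparison.

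Upper-quartile factors moved the median log2 fold change of all genes to 0.108 in the activated cells against WT and 0.096 for NC against WT. With them SMARCA4 (0.03) and PBRM1 (0.0079) changed sign in the activated cells against WT, and so did ARID2 (0.02), SMARCC1 (0.03) and SMARCC2 (0.0036) for NC against WT. When single samples were left out, signs also changed for SMARCA4 (-0.19 to 0.05), ARID1A (-0.0063 to 0.17) and ARID2 (-0.01 to 0.03) in the activated cells against WT, for SMARCA4 in NC against WT (-0.01 to 0.20) and for PBRM1 in the activated cells against NC (-0.03 to 0.07). These changes were all below the threshold, and their cause was not tested. The 86 to 225 counts of SMARCA2 and its spread between replicates limit what can be said of it in the activated cells against WT.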
